A study of Mus musculus with 8 samples.

Results

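Cell cycle and DNA replication genes were followed in retinas of mice with choroidal neovascularization (CNV), a model of the vessel growth under the retina that damages vision in macular degeneration. The set holds 33 genes, chosen by name for their known roles, with earlier results of these data known. Each was matched by symbol to a row of the deposited count table, out of 25477 rows in all. It has a replication group of 11 genes (Mcm2 to Mcm7, Pcna, Rrm1, Rrm2, Tyms and Tk1) and a mitosis group of 22 genes, kept apart throughout. Polyadenylated RNA was sequenced from 8 retina samples. Of these, 4 carry the genotype PD-L1 knockout (titled KO-CNV) and 4 the genotype control (titled WT-CNV), and both groups are named for CNV, so no retina without CNV is compared. PD-L1 is the immune checkpoint ligand encoded by Cd274. The sources used here do not give the strain, age or sex of the mice, the knockout allele, how and when CNV was induced, or whether animals were pooled. No label states that each sample is a different animal. The p-values are therefore limited to the variation among these 8 samples, part or all of which may be technical.

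A cell that divides first copies its DNA and then separates the copies. The MCM proteins form the ring-shaped helicase that opens replication origins, Pcna is the sliding clamp that holds DNA polymerases on the template, and the Rrm, Tyms and Tk1 enzymes supply the nucleotides. In mitosis the kinase Cdk1 with its B-type cyclins starts chromosome condensation, the Aurora and Polo kinases build the spindle, Bub1 and Bub1b delay separation until all chromosomes are attached, and Cdc20 and Ube2c drive the destruction of the cyclins. Neurons and photoreceptors of the adult retina do not divide, whereas microglia, endothelium and, after injury, glia can enter the cycle. In whole tissue the cells behind a transcript are not known, and fewer cells of a type cannot be told apart from less RNA per cell.

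Genes of the 2 groups are known to be switched on by different promoter elements. Replication genes are typical targets of the E2F transcription factors, and mitosis genes carry a cell cycle homology region (CHR) that the DREAM and MuvB complexes bind. Both elements were searched on both strands, from 250 bases before to 50 bases after the transcript start, in the RefSeq promoter windows of assembly GRCm38.p6. The E2F motif was any of TTTGGCGC, TTTCCCGC, TTTCGCGC and TTTGCCGC, and the CHR motif was TTTGAA or TTTAAA. Overlapping matches were both kept, and TTTAAA reads the same on both strands. Windows were found for 28 of the 33 genes (10 replication, 18 mitosis; Mcm4, Ccna2, Aurkb, Kif20a and Tpx2 had none). A CHR motif lay in 16 of the 18 mitosis windows (88.9%) and in 4 of the 10 replication windows (40%). It lay in 30.6% of the 27025 genes with a window and in 23.1% of the 13146 of them that were tested for expression. An E2F motif lay in 4 of 10 replication windows, all of MCM genes (Mcm3, Mcm5, Mcm6 and Mcm7), and in 1 of 18 mitosis windows, that of Cdk1. It lay in 2.6% of all genes with a window and in 4.25% of those tested. A match is a description of the letters and not a measured binding site.

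**Figure D1:**
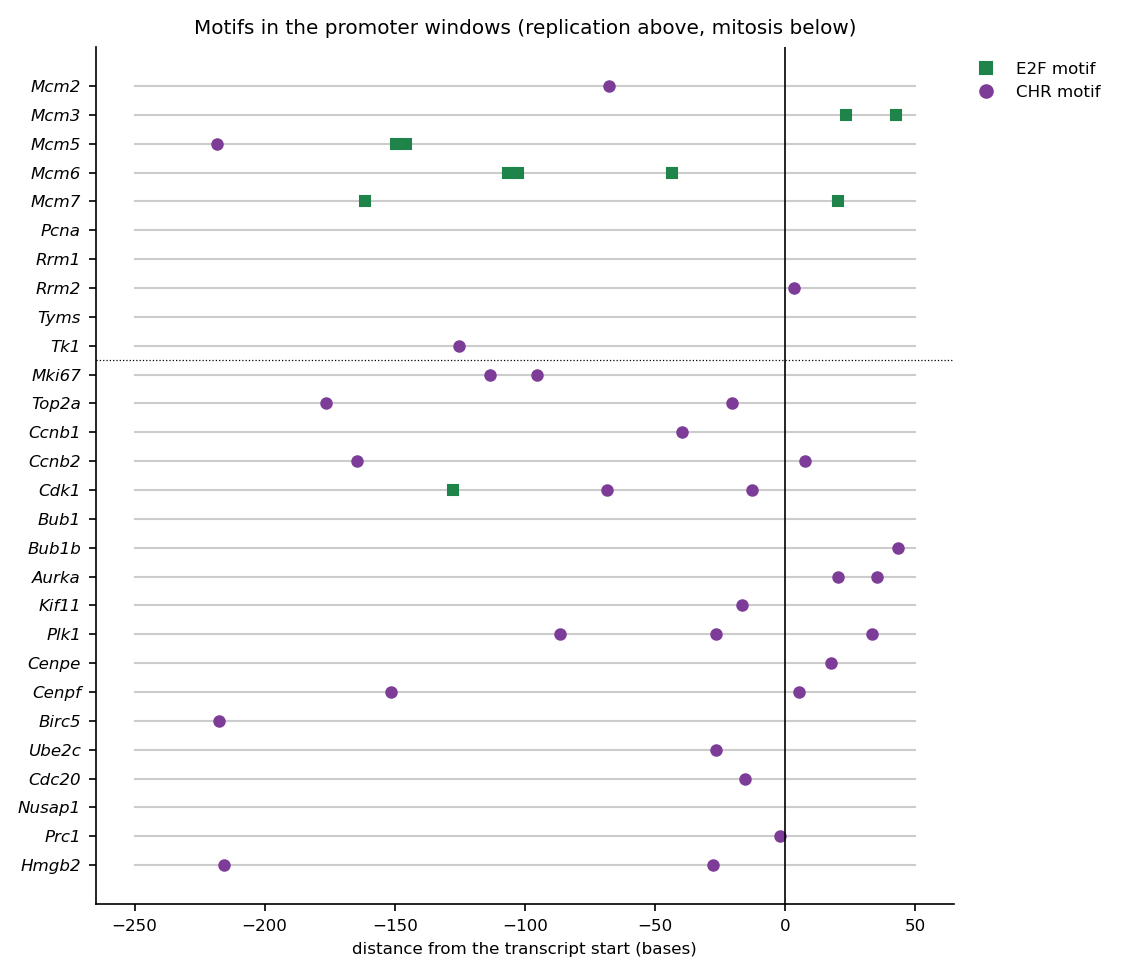
Position of E2F motifs (squares) and CHR motifs (circles) relative to the transcript start, in bases, for the 28 genes with a RefSeq window; grey lines span 250 bases before to 50 after the start, and only the first window of Mcm7 and Prc1 is drawn. CHR motifs mark 16 of the 18 mitosis genes below the dotted line, and E2F motifs mark 4 of the 10 replication genes above it.

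The upstream sequences below show these elements in capitals, on the strand of the gene, 5′ to 3′. Mcm2 and Mcm6 (replication) and Hmgb2 and Ccnb2 (mitosis) are the most highly expressed genes of each group with a match outside the annotated gene. Mki67 and Cdk1 were added after their values were seen, because they had the smallest p-values of the whole set. Mcm6 holds an overlapping pair of E2F motifs facing each other and a further one nearer the start, at bases -110, -106 and -47. Cdk1 holds the single E2F motif of the mitosis group, at -131, followed by CHR motifs at -71 and -15. The capitals TTCAAA in Hmgb2 are the CHR motif read on the other strand. The windows are Mcm2 chr6:88898781-88899030 (minus strand), Mcm6 chr1:128359706-128359955 (minus), Hmgb2 chr8:57511593-57511842 (plus), Ccnb2 chr9:70421555-70421804 (minus), Mki67 chr7:135716451-135716629 (minus, bases -250 to -72 only) and Cdk1 chr10:69352913-69353162 (minus).
Mcm2: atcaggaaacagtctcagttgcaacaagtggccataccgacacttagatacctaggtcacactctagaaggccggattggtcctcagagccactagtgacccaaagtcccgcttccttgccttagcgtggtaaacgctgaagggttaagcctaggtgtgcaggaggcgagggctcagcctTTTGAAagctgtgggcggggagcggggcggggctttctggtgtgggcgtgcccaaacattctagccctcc
Mcm6: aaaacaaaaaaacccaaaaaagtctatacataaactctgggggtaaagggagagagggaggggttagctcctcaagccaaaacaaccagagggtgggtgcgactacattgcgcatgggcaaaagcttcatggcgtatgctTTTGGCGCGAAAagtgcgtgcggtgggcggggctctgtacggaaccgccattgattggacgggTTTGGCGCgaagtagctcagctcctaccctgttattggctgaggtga
Hmgb2: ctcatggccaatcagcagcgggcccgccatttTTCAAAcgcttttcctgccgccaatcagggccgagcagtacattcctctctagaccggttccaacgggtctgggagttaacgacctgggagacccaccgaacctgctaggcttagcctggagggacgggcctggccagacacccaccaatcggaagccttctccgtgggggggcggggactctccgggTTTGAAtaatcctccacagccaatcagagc
Ccnb2: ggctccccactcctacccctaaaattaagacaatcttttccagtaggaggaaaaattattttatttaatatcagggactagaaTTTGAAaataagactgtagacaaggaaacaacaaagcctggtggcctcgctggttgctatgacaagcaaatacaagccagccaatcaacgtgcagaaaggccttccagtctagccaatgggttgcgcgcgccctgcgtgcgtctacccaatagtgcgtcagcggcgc
Mki67: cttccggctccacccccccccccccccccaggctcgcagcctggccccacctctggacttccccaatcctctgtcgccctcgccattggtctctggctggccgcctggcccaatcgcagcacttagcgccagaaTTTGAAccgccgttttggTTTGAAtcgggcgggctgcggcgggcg
Cdk1: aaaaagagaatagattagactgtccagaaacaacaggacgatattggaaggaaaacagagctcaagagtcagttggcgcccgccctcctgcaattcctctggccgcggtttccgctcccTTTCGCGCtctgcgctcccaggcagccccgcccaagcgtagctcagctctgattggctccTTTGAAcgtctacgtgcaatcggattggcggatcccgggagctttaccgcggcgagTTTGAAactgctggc

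The libraries held 31743404 to 36438248 gene counts. Levels are given as CPM, counts scaled to the same library size with TMM factors, where 1 count is 0.028 to 0.0314 CPM. Comparisons between genes use FPKM, the authors' deposited values per kilobase of a fixed length for each gene, which is not the span of the gene on the chromosome. Cd274 was at 0.335 ± 0.0758 CPM in the knockouts and 4.48 ± 0.544 CPM in the controls (SD, n = 4 each), in the direction of the labels. An exact permutation test, two-sided, gave p = 0.0286, and no smaller value is possible with 70 arrangements. Xist was at 97550 to 164308 counts and Eif2s3y at 0 to 6 counts in all 8 libraries. Kdm5d, a Y-linked gene, was at 452 to 963 counts in the knockouts and 0 to 4 in the controls. The groups therefore differ in Kdm5d as well as in Cd274, and the part of that difference in the values below was not tested. Transcripts of a list of lens genes summed to 1920 to 6740 CPM in knockout 3 and controls 2 and 3 and to 4.66 to 51.2 CPM in the other 5 libraries. Rod genes, which define the retina, summed to 38600 to 55200 CPM in the 8 libraries. A fold change is given on the log2 scale, knockout over control, with its standard error (SE) from edgeR's quasi-likelihood test. Its p-value is adjusted over the 16861 genes that passed the filter on low counts, and a gene is called at an adjusted p under 0.05.

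No gene of either group passed the test, and 23 of the 30 had a positive fold change. Of the 10 replication genes tested none was called, 8 had a positive fold change, and the median was 0.30. Of the 20 mitosis genes tested none was called, 15 were positive, and the median was 0.44. The mitosis median was 0.22 under a stricter filter on low counts, which leaves 13 of its genes, and the replication median was 0.18 without the 3 lens-rich libraries. Over all 16861 genes 430 were called (203 higher, 227 lower), or 2.55%, 49.8% were positive and the median was 0.00. Scaling by library totals alone gave 207 higher and 131 lower. At an unadjusted p under 0.05, 11 of the 30 passed (5 replication, 6 mitosis, 10 of them higher in the knockout), or 36.7%, against 21.3% of all genes. By direction, 10.5% of all genes passed that unadjusted limit as higher and 10.8% as lower. The knockout values lay above all 4 controls for 5 of the 30 genes (Mcm5, Mki67, Cdk1, Cenpf and Nusap1), against 5.19% of all genes. They lay below all 4 controls for 1 gene, Ccna2, against 5.78%. These shares describe genes that share regulators and are not independent of each other, and no test was made of the set. Of the genes at the unadjusted limit, 5 mitosis and 2 replication genes averaged under 1 FPKM. Such low genes pass the filter more easily when they are high in a group, so their count is not support for a difference. DESeq2 called 2 of the 25 genes to which it gave an adjusted p (8%), Mki67 with a positive and Ccna2 with a negative fold change, and it called 8.95% of all genes, so the members lay near the background. With no filter on low counts edgeR called 1 of the 33 (Mki67), or 3.03%, against 2.71% of all genes.

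**Figure D2:**
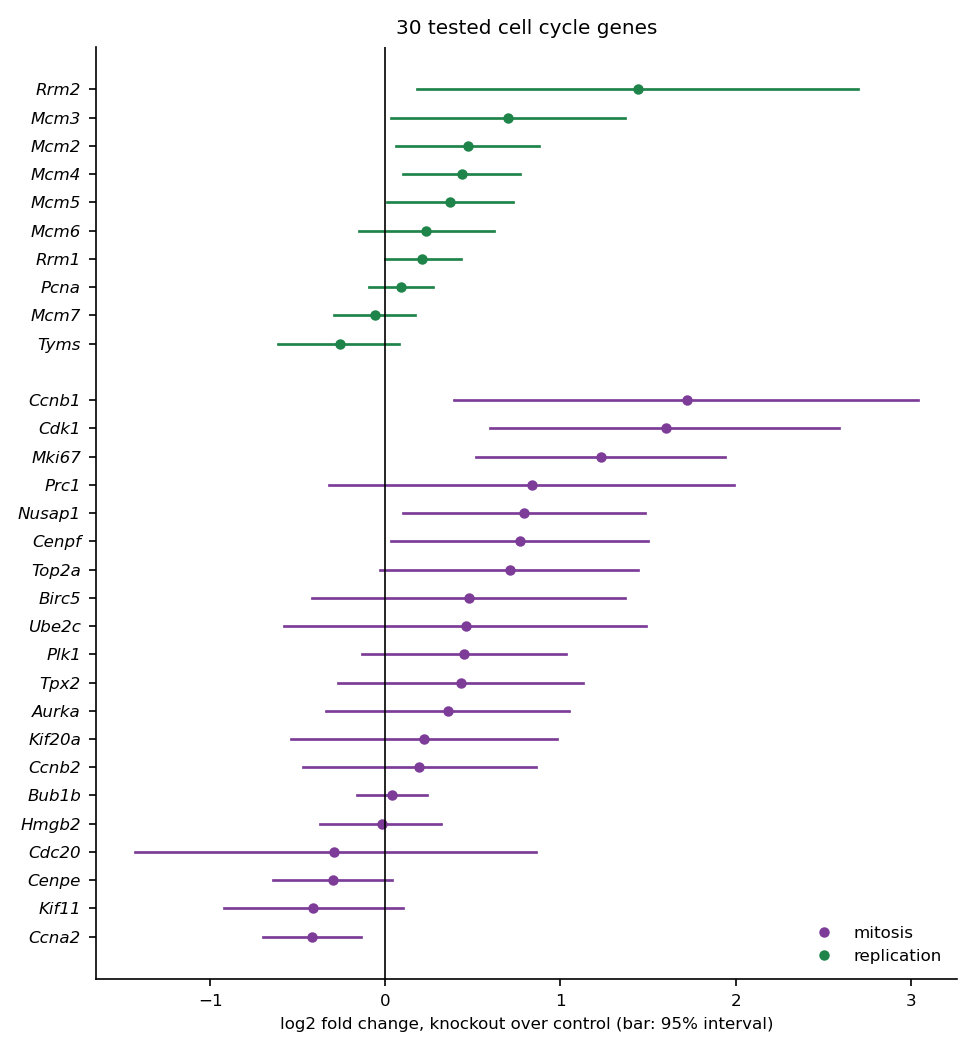
Log2 fold change, knockout over control, of the 30 tested genes (points) with the 95% interval of edgeR (bars), replication genes above and mitosis genes below. Intervals that lie wholly above 0 belong to 10 genes, that of Ccna2 lies wholly below it, and none of these genes passed after adjustment over all genes.

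The count of called genes depended on control 4. Without that library 3209 of 17146 genes were called (18.7%), and 6 of the 33 members among them (18.2%), so that the members' share lay near that of all genes. The 6 were Mcm2, Mcm4, Rrm1, Mki67 and Aurkb, with positive fold changes, and Ccna2, with a negative one. Without any other single library no member was called.

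**Figure D3:**
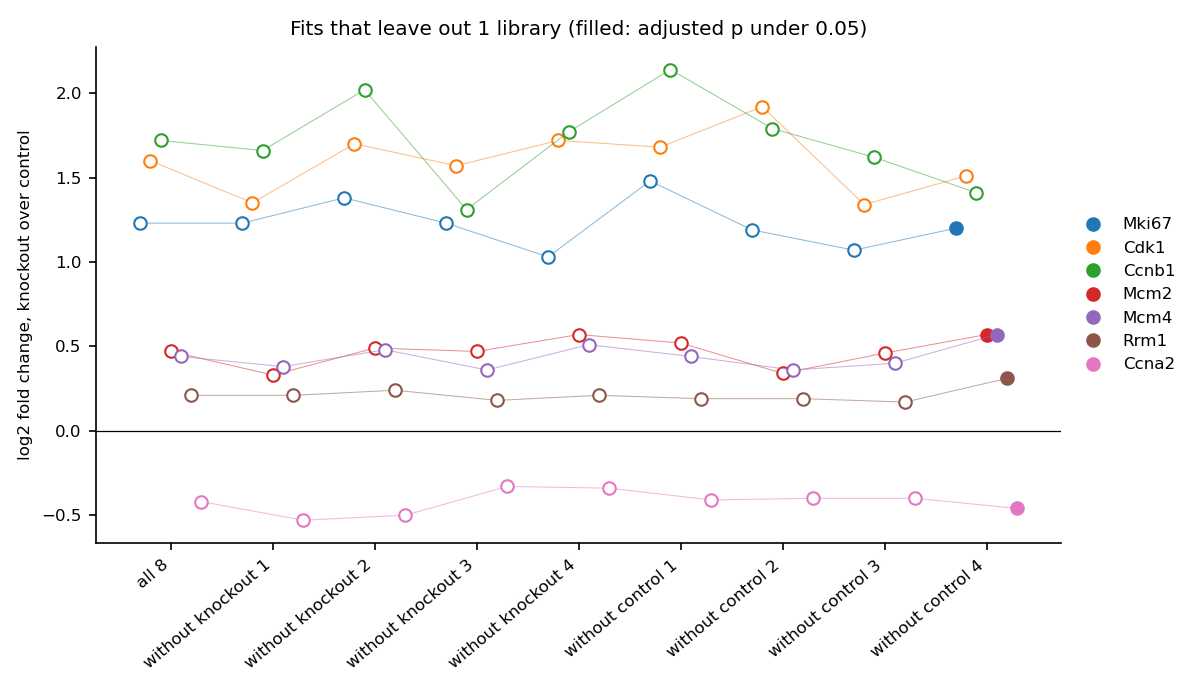
Log2 fold change (vertical axis) of 7 genes in the fit of all 8 libraries and in the 8 fits that each leave out 1 library (horizontal axis); filled points have an adjusted p under 0.05. Filled points appear only without control 4, where Mki67 is at 1.20, Mcm2 and Mcm4 at 0.57, Rrm1 at 0.31 and Ccna2 at -0.46.

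The levels within each group spanned a wide range. Per length, Pcna was the most abundant replication gene at 55.5 FPKM (mean over 8 libraries) and Rrm2 and Tk1 the least at 0.204 and 0.205 FPKM. In the mitosis group Hmgb2, a chromatin protein that bends DNA, stood at 26.7 FPKM, cyclin A2 (Ccna2) at 14.8 and Bub1b at 13.1. The other 19 mitosis genes were at 0.0631 to 1.13 FPKM. Of all 33 genes, 20 averaged under 1 FPKM, 17 of them in the mitosis group, and 9 had fewer than 10 counts in at least 1 library. The proliferation markers Mki67 and Top2a were detected in every library, at 22 to 115 and 29 to 92 counts. Cdk1, a partner of cyclin A2 and of the B cyclins, averaged 0.137 FPKM, far under cyclin A2.

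The larger fold changes lay among the lower genes. Among the 15 tested mitosis genes under 1 FPKM, 12 were positive and the median fold change was 0.48, while the 5 at or above 1 FPKM had a median of 0.04. The 8 replication genes at or above 1 FPKM had a median of 0.22, and the remaining pair, Mcm3 and Rrm2, were at 0.70 and 1.44. Over all genes tested the median was -0.04 under 1 FPKM and 0.01 above it. This division was made after the values were seen and was not tested. Low genes also passed the filter more easily when they were high in a group, so a count over them is not support for a difference.

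**Figure D4:**
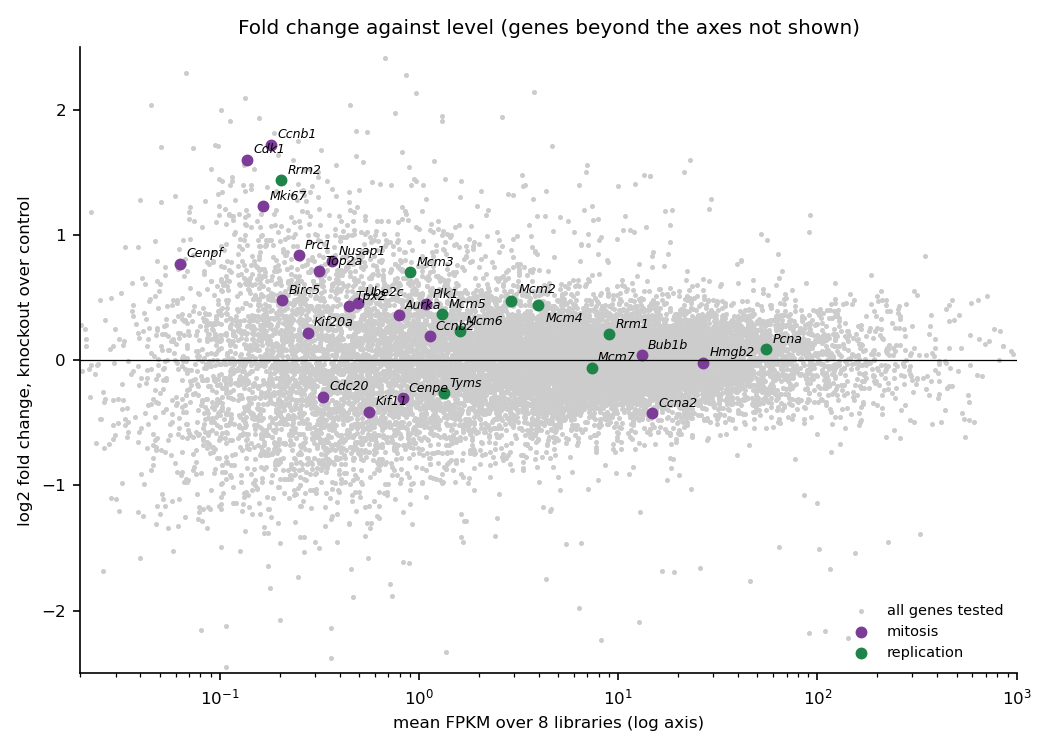
Log2 fold change (vertical axis) against the mean FPKM over 8 libraries (log axis) for all genes tested (grey), mitosis genes (purple) and replication genes (green). Ccnb1, Cdk1, Rrm2 and Mki67 lie above 1 on the vertical axis at levels under 1 FPKM, and the genes above 10 FPKM lie between -0.42 and 0.09.

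Among the replication genes the 6 MCM helicase subunits had fold changes of -0.06 to 0.70, and none was called. Mcm2 was at 14.4, 10.6, 11.3 and 8.86 CPM in knockouts 1 to 4 and at 9.02, 5.71, 8.07 and 9.82 in controls 1 to 4. Control 2 was the lowest library and knockout 1 the highest, and the groups overlapped (log2 fold change 0.47, SE 0.19, adjusted p = 0.181). Mcm4 was at 17.9, 14.5, 18.9 and 13.9 CPM in the knockouts and 12.2, 9.77, 11.1 and 15.1 in the controls. Control 4 alone reached into the knockout range (0.44, SE 0.16, adjusted p = 0.137). Mcm5 was at 4.63, 5.62, 5.37 and 4.69 CPM against 4.01, 3.96, 4.22 and 3.52, the only replication gene whose groups lay apart (0.37, SE 0.17, adjusted p = 0.224). Mcm3 was at 3.14, 2.72, 4.06 and 3.69 CPM against 1.69, 1.00, 2.68 and 2.99. Its controls spread over the wider range, and control 4 lay within that of the knockouts (0.70, SE 0.31, adjusted p = 0.218). For Mcm6 the fold change was 0.23 (SE 0.18, adjusted p = 0.458). Mcm7, the most abundant of the 6 per length at 7.38 FPKM, had one of -0.06 with a 95% interval of -0.29 to 0.17. The exons of Mcm7 overlap those of Ap4m1 on the opposite strand over 7.25% of their bases, and without a stated strand setting such reads cannot be told apart.

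The clamp and the nucleotide enzymes gave narrower or more uneven values. Pcna was at 66.2 to 77.9 CPM in the knockouts and 61.8 to 71.1 CPM in the controls (log2 fold change 0.09, 95% interval -0.09 to 0.27). Rrm1, the large subunit of ribonucleotide reductase, was at 38.8, 36.2, 41.0 and 38.6 CPM in the knockouts and 31.5, 31.0, 31.0 and 39.8 in the controls. Controls 1 to 3 lay together below every knockout, and control 4 lay within the knockout range (0.21, SE 0.10, adjusted p = 0.242). Rrm2, the small subunit made mainly in S phase, rested on few reads: 12, 15, 35 and 30 counts against 4, 14, 2 and 11. In CPM knockouts 3 and 4, at 0.979 and 0.857, stood above all controls, while knockouts 1 and 2, at 0.339 and 0.434, lay below control 2 at 0.440 (1.44, SE 0.58, adjusted p = 0.182). Tyms, thymidylate synthase, leaned the other way, at 6.29 to 8.11 CPM against 7.65 to 10.6 CPM (-0.26, SE 0.16, adjusted p = 0.351). Tk1, thymidine kinase, was too low for the test, with 15, 8, 32 and 24 counts in the knockouts and 6, 7, 7 and 8 in the controls.

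In the mitosis group the marker of cycling cells Mki67 had the smallest p-value. The gene lies at chr7:135689784-135716450 in GRCm38.p6. It held 81, 53, 84 and 115 counts in knockouts 1 to 4 and 48, 29, 22 and 32 in controls 1 to 4, or 2.29, 1.53, 2.35 and 3.29 CPM against 1.5, 0.911, 0.677 and 0.946. The groups lay apart, with a narrow gap between knockout 2 and control 1 (log2 fold change 1.23, SE 0.33, 95% interval 0.52 to 1.94, adjusted p = 0.0652). It was called by DESeq2 (adjusted p = 0.00811), in the fit without a filter on low counts (adjusted p = 0.0453) and without control 4 (adjusted p = 0.0351). Over all 20 alternatives its adjusted p ran from 0.00811 to 0.662. Top2a, the topoisomerase that untangles chromosomes, was at 2.23, 0.956, 2.38 and 2.63 CPM against 1.60, 0.911, 1.14 and 1.36. Knockout 2 fell among the controls and the other 3 knockouts lay above them (0.71, SE 0.34, adjusted p = 0.249).

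The mitotic kinase and its B-type cyclins were low and uneven. Cdk1 (chr10:69335146-69352912) held 46, 23, 34 and 23 counts in the knockouts and 11, 15, 4 and 8 in the controls. Every knockout stood above every control (log2 fold change 1.60, SE 0.46, adjusted p = 0.0803). Ccnb1, cyclin B1, held 25, 6, 40 and 20 counts against 11, 7, 5 and 2, with knockout 2 among the controls (1.72, SE 0.61, adjusted p = 0.139). Ccnb2, cyclin B2, overlapped at 1.37 to 2.46 CPM against 0.971 to 2.25 CPM (0.19, SE 0.31, adjusted p = 0.749). Ccna2 (chr3:36564865-36573038) was the exception in direction among the genes whose groups lay apart. It was at 51.4, 48.9, 35.0 and 35.9 CPM in the knockouts and 58.0, 59.4, 59.8 and 51.7 in the controls. The groups lay apart by a small margin between knockout 1 and control 4 (-0.42, SE 0.13, adjusted p = 0.0926, and 0.0313 by DESeq2). Ccna2 shares 12.5% of its exonic bases with Exosc9, a gene on the opposite strand with a fold change of 0.02. The Ccna2 value was -0.27 to -0.53 over all alternatives.

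The remaining mitosis genes act in the spindle, the kinetochore and cell division, and none of those tested was called. Cenpf, a kinetochore protein, held 25, 34, 36 and 32 counts against 17, 14, 18 and 20 (log2 fold change 0.77, SE 0.34, adjusted p = 0.217). Nusap1, a spindle protein, held 46, 42, 61 and 50 against 36, 19, 24 and 27 (0.79, SE 0.32, adjusted p = 0.181). Both had knockout values above all controls on the CPM scale. Prc1, a bundler of spindle microtubules, was higher in the knockouts by 0.84 with an interval of -0.32 to 1.99, since controls 3 and 4, at 1.08 and 0.946 CPM, lay within the knockout range. Plk1 had a value of 0.45 (SE 0.27), Tpx2 of 0.43 (SE 0.32) and Aurka of 0.36 (SE 0.32), with adjusted p from 0.346 to 0.541. Birc5, which encodes survivin, was at 0.48 and Ube2c, an enzyme that marks cyclins for destruction, at 0.46, each with an SE over 0.40. Kif20a was at 0.22 (SE 0.35), and 29.3% of its exonic bases overlap Cdc23 on the opposite strand. Such shared stretches cover 22.8% of Ube2c (Tnnc2) and 11.1% of Prc1 (Rccd1). The values were negative, without passing, for the motor proteins Kif11 (-0.41, adjusted p = 0.333) and Cenpe (-0.30, adjusted p = 0.293) and for Cdc20 (-0.29, interval -1.43 to 0.86). Bub1b and Hmgb2, both abundant, were at 0.04 (interval -0.16 to 0.24) and -0.02 (interval -0.37 to 0.32).

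Another pair of mitosis genes fell under the filter and is given as raw counts. Bub1, the checkpoint kinase, held 21, 7, 15 and 18 counts in the knockouts and 7, 3, 7 and 8 in the controls. Aurkb, the Aurora kinase of the centromere, held 16, 3, 14 and 11 counts against 1, 3, 1 and 1. Knockout 2 was level with the controls for both, and the other 3 knockouts were above all controls. In the fit without a filter Aurkb, Bub1 and Tk1 had adjusted p-values of 0.123, 0.373 and 0.247.

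**Figure D5:**
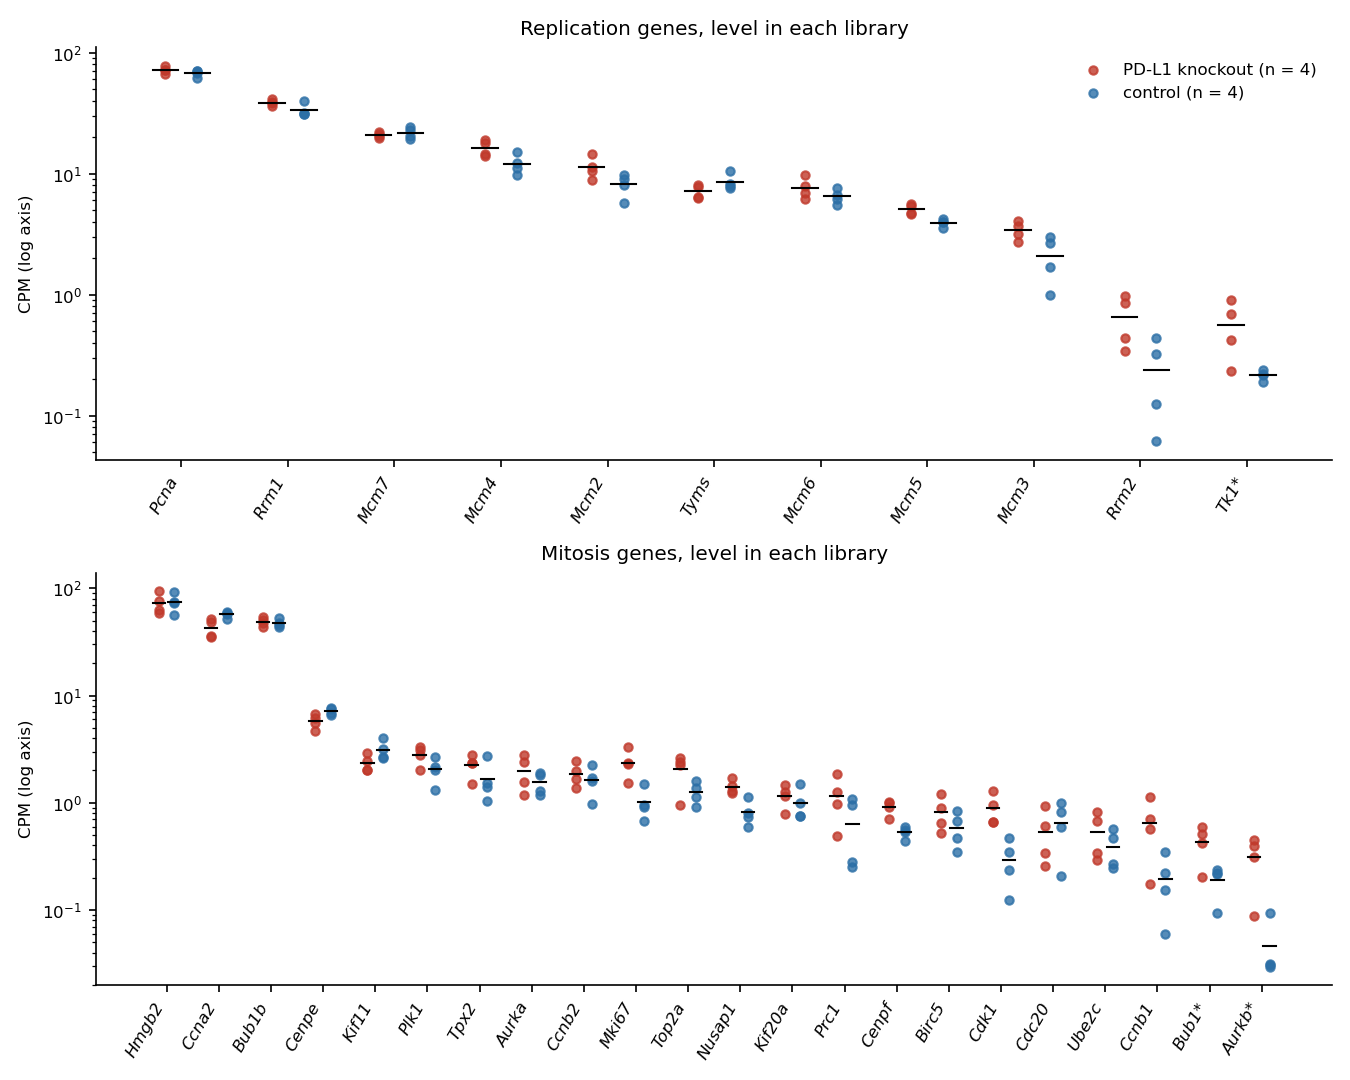
CPM (log axis) of every gene in each library, replication genes in the upper and mitosis genes in the lower panel, ordered by mean level; red points are the 4 knockouts, blue points the 4 controls, black bars the group means, and asterisks mark genes under the filter on low counts. The abundant genes on the left overlap closely, Ccna2 apart, and the genes at or under a few CPM spread more widely, with Mki67 and Cdk1 higher in all 4 knockouts.

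Some libraries recurred at the ends of these ranges. Control 2 was the lowest library for 5 of the 10 tested replication genes and 6 of the 20 tested mitosis genes, and knockout 3 the highest for 5 and 7. Knockout 2 had the lowest knockout value of Mki67, Top2a, Ccnb1, Bub1 and Aurkb. It was not low throughout: among the 20 tested mitosis genes it was the highest library for 2 (Ccnb2 and Plk1) and the lowest for 2. The whole mitosis group summed to 226, 194, 185 and 174 CPM in the knockouts and 201, 221, 211 and 182 in the controls, which overlapped. The whole replication group summed to 183, 177, 197 and 177 CPM against 162, 159, 169 and 168, and every knockout lay above every control. Without Hmgb2, Ccna2 and Bub1b, which made up 86.2% of the group's CPM, the other 19 mitosis genes summed to 30.4, 25.4, 33.1 and 32.1 CPM in the knockouts and 24.9, 22.5, 24.8 and 26.7 in the controls. Without Pcna, Rrm1 and Mcm7 (73% of the group's CPM) the other 8 replication genes summed to 58.6, 48.7, 55.9 and 45.1 against 42.5, 34.5, 43.1 and 46.9 CPM. In these reduced sums knockout 2 (mitosis) and knockout 4 (replication) lay below control 4.

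Marker genes of other cell types were read beside these values. Of all 16861 tested genes 203 were called higher and 227 lower, or 2.55% together. Microglia and macrophage genes summed to 213, 190, 239 and 241 CPM in knockouts 1 to 4 and 160, 125, 108 and 107 CPM in controls 1 to 4. Of these 14 genes 8 were called higher. Knockout 2 was the lowest and knockout 4 the highest knockout in both the microglia sum and Mki67, and control 1 was the highest control in both. Cdk1 did not share this order: its highest knockout was knockout 1 (1.3 CPM) and its lowest knockout 4 (0.657 CPM). Its highest control was control 2 (0.471 CPM). Control 4 had the lowest microglia sum of all libraries and more Mki67 than controls 2 and 3. Endothelial genes summed to 200 to 224 CPM against 151 to 206 CPM, with 1 of 10 called higher, and pigment epithelium genes to 149 to 301 against 89.1 to 184 CPM, with 1 of 8 called higher. Mueller glia genes summed to 4280 to 5810 against 4000 to 5020 CPM, with none of 8 called. The part of these cell types in the Mki67 and Cdk1 values was not tested. Without the 3 lens-rich libraries the Mki67 fold change was 0.96 (adjusted p = 0.662) and that of Cdk1 1.59 (adjusted p = 0.628), and no member was called. The part of lens RNA in these values was not tested. Neutrophil, T and NK cell, and B cell genes summed to at most 2.37, 0.961 and 0.846 CPM in any library. Genes of the cornea and conjunctiva surface summed to 1.75 to 3.16 CPM against 3.16 to 15.6 CPM, and red blood cell genes to 1.68 to 4.03 against 10.1 to 14.5 CPM with 4 of 4 tested called lower. Retinal progenitor genes summed to 23.8 to 29.2 CPM against 24.1 to 28.1 CPM, with none of 6 called.

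The rest of the cell cycle machinery was read from 7 further lists, and 2 of their tested genes were called, both lower. Of all 16861 tested genes 2.55% were called, counting either direction. Of 19 tested genes of origin licensing and firing 1 fell, 18 did not pass, 7 were positive and the median was -0.10. The 1 was Orc4 (chr2:48902824-48952902), a subunit of the origin recognition complex. It was at 53.1, 47.0, 48.2 and 61.8 CPM in the knockouts and 78.7, 93.2, 85.0 and 80.9 in the controls, wholly apart (log2 fold change -0.69, SE 0.10, adjusted p = 0.00478). Orc4 kept its call without each single library (adjusted p up to 0.0287) and lost it without the 3 lens-rich libraries (-0.56, adjusted p = 0.256). On the opposite strand Acvr2a overlaps 5.98% and Mbd5 1.82% of the exonic bases of Orc4. Of 35 tested genes among the other mitosis genes 1 fell and 34 did not pass, with 13 positive and a median of -0.06. The 1 was Kif4, a chromosome-bound motor protein (chrX:100626065-100727271), at 13.5, 11.2, 6.63 and 11.3 CPM against 24.2, 26.5, 21.7 and 17.2 (-1.07, SE 0.20, adjusted p = 0.0159). Kif4 lost the call without control 1 (adjusted p = 0.0522), without control 2 (adjusted p = 0.0608) and without the 3 lens-rich libraries (-0.78, adjusted p = 0.256). Its exons overlap those of Pdzd11 on the opposite strand over 15.1% of their bases.

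No other list held a called gene. The 29 polymerase and fork genes had a median of 0.07 and 6 genes at an unadjusted p under 0.05, a limit that 21.3% of all genes passed and that no list in this paragraph exceeded in share. Rpa3, a subunit of the protein that coats single-stranded DNA, was at -0.58 (adjusted p = 0.0972) and Fen1, the flap nuclease, at 0.38 (adjusted p = 0.117). The 12 G1 cyclins and kinases had a median of 0.12 with 2 at that unadjusted limit, Ccnd1 at 0.35 (adjusted p = 0.187) and Ccnd3 at 0.22 (adjusted p = 0.168), both D-type cyclins of entry into the cycle. Of 6 tested CDK inhibitors none reached it. Cdkn1a, which encodes p21, was at 0.46 (adjusted p = 0.315) and Cdkn1b, which encodes p27, at -0.14 (adjusted p = 0.357). The 19 genes of the E2F, RB and DREAM regulators had a median of 0.01 with 3 at the limit, among them E2f5 at -0.30 (adjusted p = 0.148) and Lin37, a MuvB subunit, at 0.31 (adjusted p = 0.189). The 17 replication stress and repair genes had a median of -0.08 with 1 at the limit, the checkpoint kinase Atr at -0.18 (adjusted p = 0.213), and Timeless, a fork protection factor, was at 0.28 (adjusted p = 0.333).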

How the data were processed

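The 8 retina samples (4 PD-L1 knockout, 4 control) were grouped by the genotype label and called knockout 1 to 4 and control 1 to 4 after their titles. RNA was taken with TRIzol and sequenced as VAHTS V6 libraries, per the labels' protocols. The submitters' processing notes name fastp, HISAT2, HTSeq and build mm10. The sources used here give no versions, annotation, strand setting or filters. The authors deposited raw read counts per gene, with no row that names no gene, and FPKM values, which equal the counts divided by library total and 1 fixed length per gene (largest deviation 8.84e-14%).

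Deposited counts went into edgeR 4.0.16 (R 4.3.3) with TMM factors, filterByExpr (minimum count 10, minimum total 15; 16861 genes), quasi-likelihood test, two-sided, Benjamini-Hochberg adjustment over all tested genes, no covariate. The SE is the absolute log2 fold change over the square root of F, and 95% intervals use the t quantile. The fit was tested on simulated data. The members, the further lists and the tests were chosen with earlier results of these data known. All 33 members are named, and of each further list up to 4 called genes or the 2 of smallest p. Gene positions (matched for 96.7% of the genes by Entrez identifier) and promoter windows are from RefSeq GRCm38.p6, and exon overlaps are from GENCODE M21. Alternatives were RLE, upper quartile and library-size scaling, no filter and a filter of 1 CPM in 4 libraries, robust dispersions, DESeq2 1.42.0, limma 3.58.1 (voom, and trend on log2(FPKM + 0.1)), the title number as a block, the log2 lens sum as covariate, no lens-rich libraries (lens list over 100 CPM), and each library left out. Counts without molecular identifiers do not show PCR duplicates.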

Additional observations from a re-analysis of the deposited data

Results flagged for a closer look

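Of 66 groups of 4 libraries (33 genes in knockouts and in controls), 3 held a library far from the other 3 of its group by Dixon's ratio, a limit that chance alone passes in about 1 in 20 groups. Rrm1 was at 39.8 CPM in control 4 and at 31.0 to 31.5 CPM in the other controls. Control 4 is also the library without which 3209 genes were called. Bub1 was at 0.0942 CPM in control 2, against 0.216 to 0.237 CPM in the other controls, which is 3 counts against 7 to 8. Aurkb was at 0.0942 CPM in control 2, against 0.0296 to 0.0313 CPM, which is 3 counts against 1 in each of the others.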

How the results depend on the processing

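The medians of the groups kept a positive sign under all 20 alternatives, at 0.18 (without the lens-rich libraries) to 0.40 for replication and 0.22 (stricter filter) to 0.60 for mitosis. Over the fits that left out 1 library they were 0.27 to 0.40 and 0.38 to 0.60. No replication gene was called under any alternative with all 8 libraries, and the fits that left out 1 library called 0 to 3 replication and 0 to 3 mitosis genes, above 0 only without control 4. Among mitosis genes 1 of 22 was called with no filter on low counts (Mki67) and 2 of 16 with DESeq2 (Mki67 and Ccna2), which gave Cdk1 no adjusted p. The count over all genes, 430, was 690 of 25477 with no filter (2.71%), 1392 of 15549 with DESeq2 (8.95%), 264 with the lens sum as covariate, 15 without the lens-rich libraries (3 knockouts against 2 controls, fewer samples) and 108 to 3209 without single libraries. Each single library but knockout 1 moved it by over 1.5 times. The causes were not tested.

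The title numbers were not treated as pairs. Same-numbered libraries had correlations of deviations of 0.21, -0.04, 0.12 and 0.01, and only number 1 matched best with itself. With the replicate number as a block 228 genes were called and no member.

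Of the 30 tested genes 24 kept their sign throughout. The 6 others were near 0 or uneven. Hmgb2 was at 0.00 by library size only, 0.24 without the lens-rich libraries, 0.04 without knockout 3, 0.06 without knockout 4 and 0.11 without control 2, within -0.17 to 0.11 over the fits without single libraries. Bub1b was at -0.01 without knockout 3, within -0.01 to 0.09. Mcm7, Tpx2 and Cdc20 were at 0.05, -0.02 and 0.01 without the lens-rich libraries. With the lens sum as covariate Mcm7, Aurka and Cdc20 were at 0.01, -0.01 and 0.10. Depth limits the low genes most: at 0.028 to 0.0314 CPM per count, 9 of the 33 genes had under 10 counts in at least 1 library. They were Rrm2, Tk1, Ccnb1, Cdk1, Bub1, Aurkb, Ube2c, Cdc20 and Prc1.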

Other observations

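Several genes of shared protein complexes of the cell cycle were far from equal in level, in both genotypes. Spc25, a subunit of the NDC80 kinetochore complex, averaged 59.9 ± 13.3 FPKM in the knockouts and 76.6 ± 18.1 FPKM in the controls (SD, n = 4 each), whereas its partners Spc24, Nuf2 and Ndc80 averaged 0.370, 0.719 and 0.126 FPKM over the 8 libraries. In the origin recognition complex Orc2 to Orc6 averaged 7.78 to 14.1 FPKM, and Orc1 averaged 0.0579 FPKM with 2 to 10 counts per library. The log2 fold change of Spc25 was -0.37 (SE 0.18, edgeR adjusted p = 0.253). Mcm10, a replication initiation factor, had a value of -0.88 (SE 0.25, adjusted p = 0.0800), with groups that overlapped. All genes of this paragraph were singled out after their values were seen.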
